A study of Mus musculus with 8 samples.

Results

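Cytochrome P450 genes outside the Cyp3a subfamily were followed in kidney RNA of tacrolimus-treated and control CD-1 mice, an outbred laboratory stock. They were taken by name from the array annotation: every gene symbol of the form Cyp, family number, subfamily letters and gene number, leaving out all Cyp3a genes and Cyp27b1 and Cyp24a1, which act on vitamin D. The rule found 84 genes, read by 106 probes, among 34650 named genes and transcripts on the array. Of these 84, 62 gave a signal well above background in at least 4 arrays of the 8 and were tested, and 22 did not. Each gene is given by its brightest tested probe.

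Cytochrome P450 enzymes are haem-containing monooxygenases that insert an oxygen atom into fatty acids, steroids, retinoids, bile acid precursors and drugs, mostly with electrons from the reductase Por. In the kidney, Cyp4a enzymes hydroxylate fatty acids at the end of the chain and make the vasoactive arachidonic acid product known as HETE, while Cyp2c and Cyp2j enzymes make epoxides from the same substrate. Cyp4a genes are classical targets of the fatty acid receptor PPARα, and several P450 genes of the mouse kidney, among them Cyp4a12a, are known to be more active in males.

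Mice of the TAC group received tacrolimus, a calcineurin inhibitor that prevents transplant rejection and is known to harm the kidney, at 1 mg/kg/day for 28 days, and CTL mice received physiological serum. Each group has 4 arrays of whole kidney RNA, numbered in the labels as replicates. The labels give neither age nor sex of the mice and do not say which animal each RNA came from, so that the p-values speak only of the spread among these samples. The values are log2 intensities minus each array's own 75th percentile, and every difference is TAC minus CTL on that log2 scale. Levels of different genes come from different probes and were not set against each other.

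The arrays were alike in some measures of quality and not in others. The 75th percentile lay between 674 and 1061 intensity units, between 64.0% and 69.8% of spots were well above background, and no spot was saturated. The background level averaged over spots was 19.3 to 20.5 on TAC arrays and 21.8 to 22.1 on CTL arrays, without overlap. Outlier spots numbered 161 to 194 on TAC arrays and 147 to 163 on CTL arrays. The part of background in the results was not tested. All arrays lay on 1 slide with TAC in row 2 and CTL in row 1, so that row and treatment cannot be told apart. Markers of the proximal tubule were all 16 tested, with a summed level of 11.07 to 11.51 on TAC arrays and 11.23 to 11.49 on CTL arrays, and at an unadjusted p under 0.05 none of them was higher and 1 was lower. The Y-linked Ddx3y lay between 1.47 and 1.60 on all 8 arrays, while Xist was well above background on no TAC array and 1 CTL array. At that threshold 6 of 7 macrophage and 5 of 6 fibroblast markers were higher, and of 5 neutrophil markers, all with lower TAC means, 1 was lower. Among all genes tested 7.04% were higher and 8.44% lower. Of the 5 adipocyte markers, Plin1 was well above background on no CTL array and Adipoq on 1, so that they are given by their summed level. It was 0.23 to 4.12 on TAC arrays and -4.05 to 0.50 on CTL arrays, highest on TAC 4 and, among the controls, on CTL 2. The summed level of the 4 tested urothelium markers was 0.63, -1.28, -1.15 and 2.31 on TAC arrays and -1.10 to -0.84 on CTL arrays, highest on TAC 4 and TAC 1, and none of the 4 passed the threshold. Of 8 tested hepatocyte markers and 5 androgen-dependent kidney genes none passed it in either direction. The hepatocyte gene Apoa1 was well above background on no array. The hepatocyte gene Fgb was so on 3 TAC arrays and 1 CTL array, so that its CTL level is not measured. The part of these cells in the results on P450 genes was not tested.

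The probes of closely related Cyp4a genes set a limit that precedes their values. The array reads Cyp4a10 and Cyp4a31, which encode fatty acid hydroxylases, with 3 probes each. The pair nearest the middle of the transcripts is shown here because it carries both the similarity and the differences between the genes, with capitals on the 6 bases that differ:
Cyp4a10 probe, 5′ to 3′, chr4:115198463-115198522 (mm9, plus strand): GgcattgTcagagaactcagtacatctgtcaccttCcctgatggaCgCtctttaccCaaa
Cyp4a31 probe, 5′ to 3′, chr4:115243923-115243982 (mm9, plus strand): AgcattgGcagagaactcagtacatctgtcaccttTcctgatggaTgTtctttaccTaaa
Counted from 1 at the 5′ end, and from the Cyp4a10 to the Cyp4a31 probe, the substitutions are G1A, T8G, C36T, C46T, C48T and C57T, and the other 54 bases are the same. They start at bases 1193 and 1181 of their transcripts. The brightest probes of both genes, nearer the 3′ end, share 44 of 47 aligned bases. Signal from the 2 genes may therefore mix, and their values are not independent. Among the probes used, only the pairs Cyp2c67 with Cyp2c68 (55 of 59 bases) and Cyp2c37 with Cyp2c50 (35 of 40) shared as much, at 85% identity over at least 40 bases. Probes were compared with probes and not with transcripts. Whether other Cyp4a probes, such as those of Cyp4a12a and Cyp4a12b, also read related transcripts was not tested.

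Cyp4a genes were lower on average under tacrolimus, but none passed the test across all genes. All 7 tested members had a lower TAC mean, with differences from -1.08 to -0.28 and a median of -0.55, against a median of -0.05 over all 25059 genes and transcripts tested. At an unadjusted p under 0.05 (limma), 3 of the 7 were lower and none higher, beside 8.44% lower and 7.04% higher among all genes. In whole kidney RNA, fewer cells of a type and less RNA per cell cannot be told apart.

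Cyp4a32 had values of 2.00, 1.71, 1.87 and 0.88 on TAC arrays and 2.47, 2.45, 3.21 and 2.65 on CTL arrays. All TAC values lay below all CTL values, and TAC 4 was the lowest. Its TAC mean was 1.61 ± 0.51 against a CTL mean of 2.70 ± 0.36 (SD, n = 4 each), a 2.12-fold lower level (difference -1.08 ± 0.27 (SE), unadjusted p = 0.0036, adjusted p = 0.128, limma). Cyp4a10, a hydroxylase of lauric and arachidonic acid, had 4.93, 4.65, 5.14 and 4.20 on TAC arrays and 5.42, 5.15, 5.93 and 5.44 on CTL arrays. The groups again did not overlap, although TAC 3 lay just below CTL 2. Its difference was -0.76 ± 0.23 (SE), a 1.69-fold lower level (unadjusted p = 0.0106, adjusted p = 0.197, limma). Cyp4a31 had 4.80, 4.56, 5.20 and 4.25 on TAC arrays and 5.28, 5.04, 5.84 and 5.20 on CTL arrays, with TAC 3 above CTL 2 and level with CTL 4. Its difference was -0.63 ± 0.23 (SE, unadjusted p = 0.0261, adjusted p = 0.261, limma). TAC 4, the lowest array for all 3 genes, was the highest in summed adipocyte and urothelium level, and their part was not tested. Without TAC 4 the differences were -0.84 for Cyp4a32, -0.58 for Cyp4a10 and -0.48 for Cyp4a31, the last with an unadjusted p of 0.0684 (limma).

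**Figure D1:**
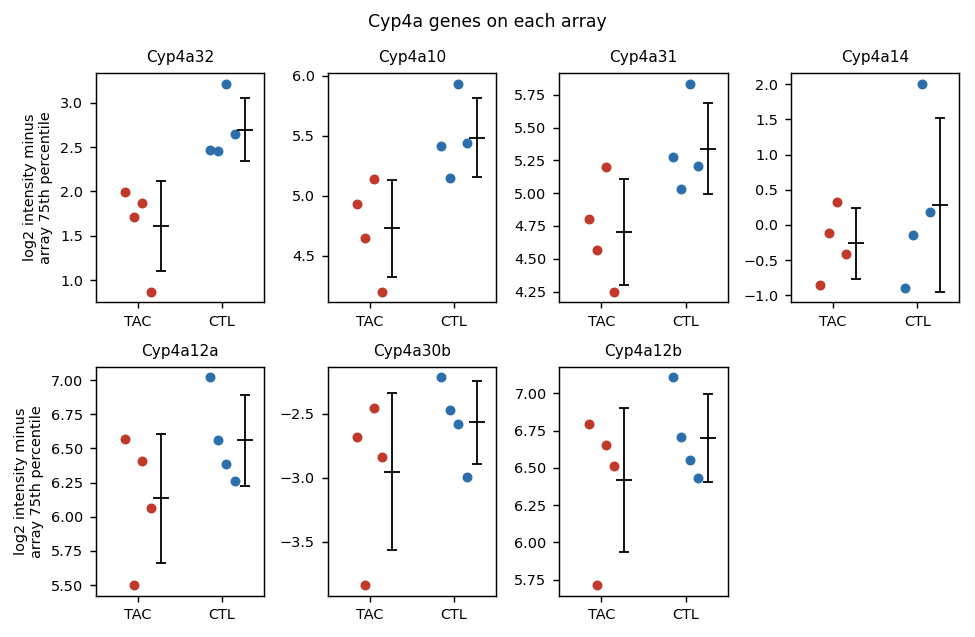
Log2 intensity minus the array's 75th percentile for the 7 tested Cyp4a genes, each panel with its own vertical axis that does not start at 0, points for the 4 TAC arrays (left, red) and 4 CTL arrays (right, blue), and the mean with SD beside them. The groups do not overlap for Cyp4a32 and Cyp4a10, and TAC 2 (the second red point) is the low one for Cyp4a12a, Cyp4a12b and Cyp4a30b.

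Further probes of these genes differed in the same direction. The 3 Cyp4a10 probes gave -0.76, -0.83 and -0.55, and the 3 Cyp4a31 probes gave -0.63, -0.39 and -0.62. At the printed pair, Cyp4a10 read 2.23, 1.57, 2.60 and 2.13 on TAC arrays and 2.59, 2.47, 3.09 and 2.58 on CTL arrays, and TAC 3 lay above 3 of the CTL values. Cyp4a31 read 2.50, 1.62, 2.92 and 2.44 on TAC arrays and 2.87, 2.59, 2.92 and 2.67 on CTL arrays. TAC 2 was the lowest array at both of these probes, while TAC 4 was the lowest at the brightest probe of each gene.

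None of the other Cyp4a genes passed the unadjusted threshold. Cyp4a12a, the male-predominant arachidonic acid omega-hydroxylase of the mouse kidney, had 6.57, 5.50, 6.41 and 6.06 on TAC arrays and 7.02, 6.57, 6.39 and 6.26 on CTL arrays (difference -0.42 ± 0.25, SE). Its neighbour Cyp4a12b had 6.79, 5.71, 6.65 and 6.51 on TAC arrays and 7.11, 6.71, 6.55 and 6.43 on CTL arrays (difference -0.28 ± 0.25, SE). Both were lowest on TAC 2, and their other TAC values lay within or close to the CTL range. Cyp4a14, a strongly inducible hydroxylase, had -0.86, -0.12, 0.33 and -0.41 on TAC arrays and -0.90, -0.15, 2.01 and 0.19 on CTL arrays, so that CTL 3 set most of its difference of -0.55 ± 0.57 (SE). Without CTL 3 the difference of Cyp4a14 was 0.02. Cyp4a30b differed by -0.39 ± 0.30 (SE), again with TAC 2 lowest at -3.84, and Cyp4a29 was well above background on no array.

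Of the 12 other PPARα target genes of liver and kidney reported here, at the unadjusted threshold none was higher and 4 were lower, beside 7.04% higher and 8.44% lower among all genes, and none was called across all genes (limma, lowest adjusted p = 0.142). Their median difference was -0.21, with 2 positive and 10 negative, against a median of -0.05 and 60.5% negative among all genes. Acot1, an acyl-CoA thioesterase, differed by -1.07 ± 0.28 (SE) and Ehhadh, a peroxisomal beta-oxidation enzyme, by -0.54 ± 0.14. Hadha, a mitochondrial beta-oxidation subunit, differed by -0.21 ± 0.09 and Cpt1a, which passes fatty acids to mitochondria, by -0.26 ± 0.11. Ppara itself was 4.32, 4.51, 4.69 and 4.36 on TAC arrays and 4.22, 4.21, 4.24 and 3.98 on CTL arrays, a difference of 0.31 ± 0.11 (SE) with no overlap between groups.

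**Figure D2:**
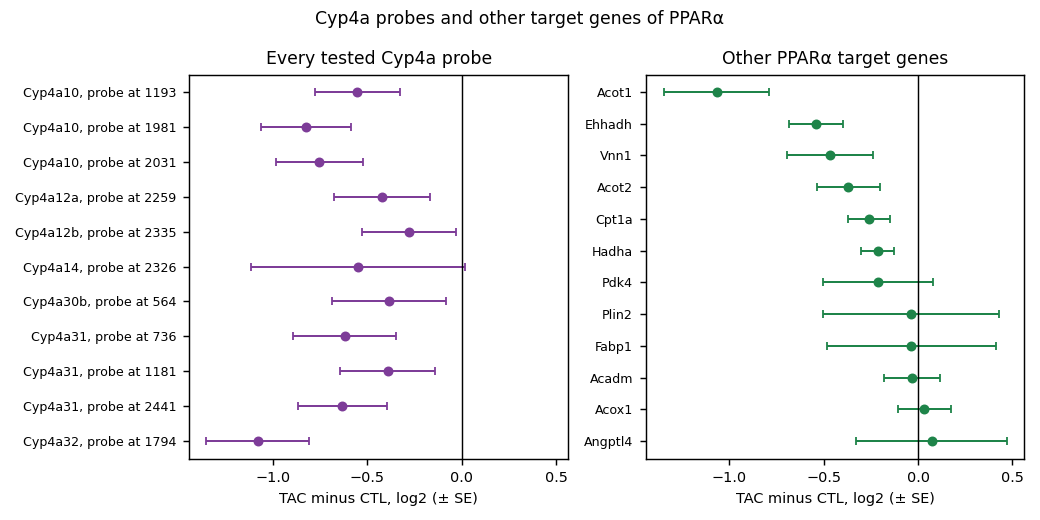
TAC minus CTL differences in log2 units with SE for all 11 tested Cyp4a probes (left, labelled by the base of the transcript where the probe starts) and for 12 other PPARα target genes (right), from 4 arrays per group. Every Cyp4a probe lies left of 0, and the other targets lie on both sides, from -1.07 for Acot1 to 0.07 for Angptl4.

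The promoter of Cyp4a32 is shown because this gene had the lowest p of the members. The 250 bases before its start are at chr4:115600688-115600937 (GRCm38.p6, plus strand, RefSeq), with capitals on a match to GTTAATNAT, letters like those of sites for the kidney and liver factor HNF1:
Cyp4a32 promoter: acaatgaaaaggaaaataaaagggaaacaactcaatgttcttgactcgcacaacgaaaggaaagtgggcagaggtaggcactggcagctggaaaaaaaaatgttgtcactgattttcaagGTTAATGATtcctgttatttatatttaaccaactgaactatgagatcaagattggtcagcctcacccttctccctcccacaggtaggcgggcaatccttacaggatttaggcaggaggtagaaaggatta
That motif was chosen after its match was seen, and its first base lies 130 bases before the start. Searched on both strands with 50 further bases after the start included, the motif occurs in 0.801% of 32851 promoters. Of the 71 promoters found for 62 of the 84 members it occurs in 3, that of Cyp4a32 included. Copies of AGGTCA separated by 1 base, the ideal PPAR site, occur in 0.0396% of the promoters and in none of these 71. A match is a description of the letters and not of a binding site.

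Across all P450 genes, differences at either threshold were about as frequent as in the rest of the array. None of the 62 members passed the adjusted threshold of 0.05, where 57 genes or 0.227% of all tested did, and the lowest adjusted p was 0.128 (limma). At an unadjusted p under 0.05, 10 members or 16.1% differed, 5 higher and 5 lower, beside 15.5% of all genes. The groups did not overlap for 6 members or 9.68%, beside 10.1% of all genes. The median difference of the members was -0.03, with 29 positive and 33 negative. Their spread was wider: the median within-group SD was 0.303 for the members and 0.200 for all genes tested.

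**Figure D3:**
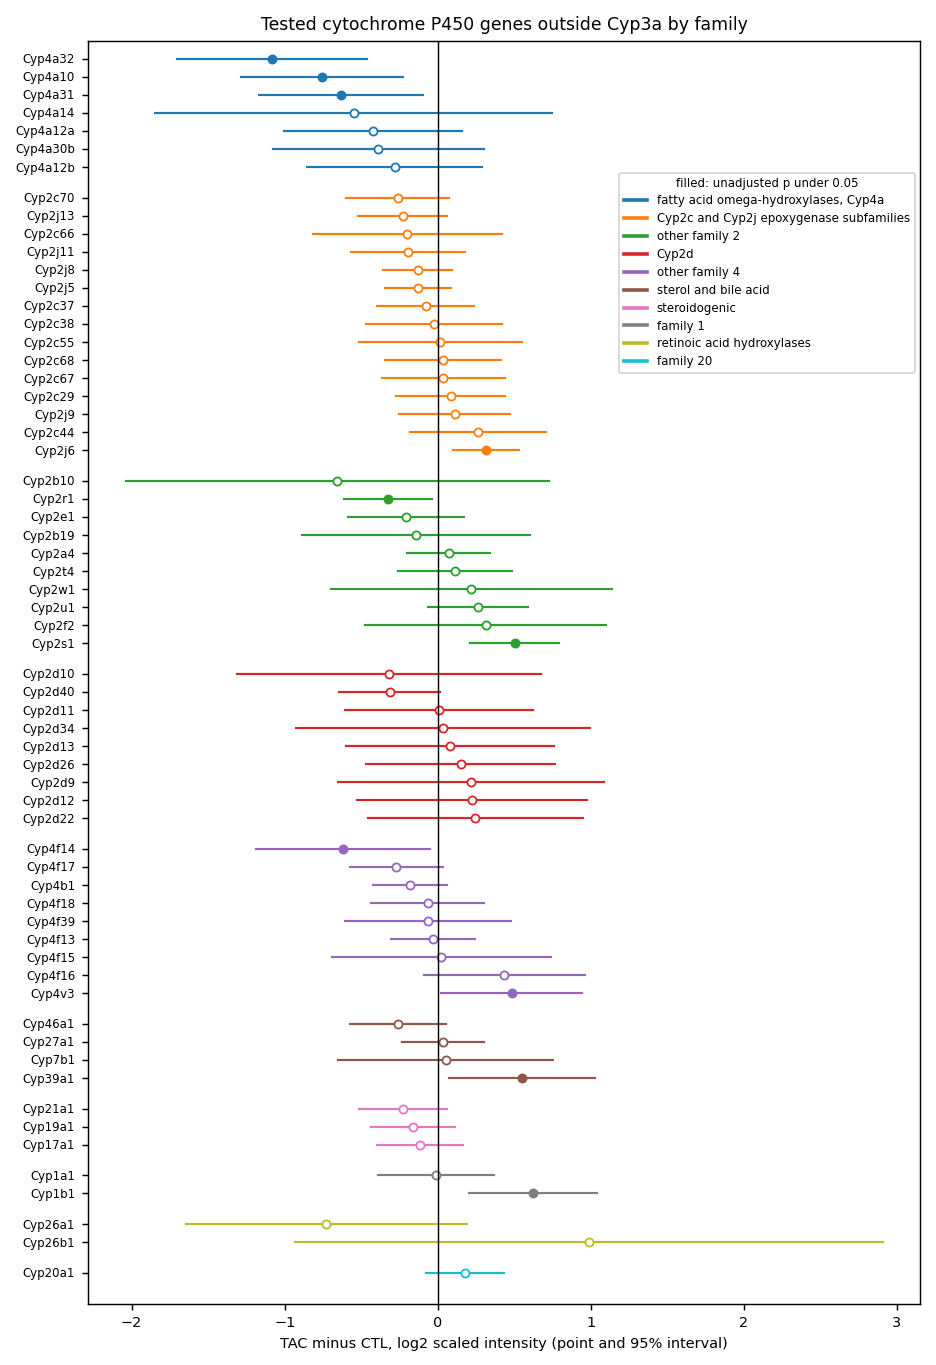
TAC minus CTL difference of each of the 62 tested members in log2 units, with its 95% interval from limma, ordered by family (colours) and by size within it, filled points marking an unadjusted p under 0.05. The 7 Cyp4a genes all lie left of 0, the Cyp2c, Cyp2j and Cyp2d genes lie on both sides of 0, and the intervals of Cyp26b1 and Cyp2b10 are the widest.

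Among the other family 4 genes, which act on fatty acids, leukotrienes and other eicosanoids, 9 of 12 were tested and their median difference was -0.06. Cyp4f14, a leukotriene B4 hydroxylase, had -2.82, -3.49, -2.42 and -3.50 on TAC arrays and -2.33, -2.72, -2.31 and -2.41 on CTL arrays. It was low on TAC 2 and TAC 4, while TAC 3 lay inside the CTL range (difference -0.62 ± 0.25 (SE), unadjusted p = 0.0366, limma). Cyp4v3, whose human counterpart CYP4V2 is known for a retinal dystrophy, had -0.21, 0.16, -0.69 and -0.75 on TAC arrays and -0.87, -0.94, -0.93 and -0.67 on CTL arrays. Here TAC 1 and TAC 2 lay above every control and the other TAC arrays did not (difference 0.48 ± 0.20 (SE), unadjusted p = 0.0420, limma). Cyp4f17 had 1.27, 1.02, 1.46 and 1.42 on TAC arrays and 1.74, 1.64, 1.56 and 1.31 on CTL arrays (difference -0.27 ± 0.13, SE). Cyp4f16 had -1.87, -1.24, -1.14 and -1.55 on TAC arrays and -2.24, -2.16, -1.35 and -1.79 on CTL arrays (difference 0.44 ± 0.23, SE). For both the groups overlapped. Cyp4b1, which activates toxic furans, had 7.79, 7.98, 8.08 and 7.87 on TAC arrays and 8.00, 8.16, 8.28 and 8.00 on CTL arrays, with a difference of -0.18 ± 0.10 (SE). Of the rest, Cyp4f13 differed by -0.03 ± 0.12, Cyp4f15 by 0.02 ± 0.31, Cyp4f18 by -0.06 ± 0.16 and Cyp4f39 by -0.06 ± 0.24 (SE).

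Of the epoxygenase subfamilies Cyp2c and Cyp2j, 15 of 19 genes were tested, with a median difference of -0.03, and only Cyp2j6 passed the unadjusted threshold. Cyp2j6, an arachidonic acid and drug-metabolising enzyme, had -0.03, 0.20, 0.06 and 0.09 on TAC arrays and -0.37, -0.20, -0.28 and -0.10 on CTL arrays. All TAC values lay above all CTL values by a small margin (difference 0.32 ± 0.09 (SE), 1.25-fold, unadjusted p = 0.0091, adjusted p = 0.184, limma). Its second probe gave 0.22 ± 0.12. The remaining Cyp2j genes differed mostly in the other direction, each with a 95% interval that included 0. Cyp2j5, the male-predominant epoxygenase of the kidney, differed by -0.13 ± 0.09, Cyp2j11 by -0.20 ± 0.16, Cyp2j13 by -0.23 ± 0.13 and Cyp2j9 by 0.11 ± 0.16 (SE). Cyp2j8 had 5.21, 5.16, 5.37 and 5.40 on TAC arrays and 5.36, 5.57, 5.45 and 5.29 on CTL arrays, a difference of -0.13 ± 0.10 (SE).

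No Cyp2c gene passed the unadjusted threshold. Cyp2c44, the main arachidonic acid epoxygenase of the mouse kidney and Cyp2c23 by its current symbol, had -1.16, -1.06, -1.43 and -1.90 on TAC arrays and -1.91, -1.53, -1.45 and -1.72 on CTL arrays, and the groups overlapped (difference 0.26 ± 0.19, SE). Cyp2c70, known in the liver for making muricholic bile acids, differed by -0.26 ± 0.15 (SE), with a 95% interval of -0.60 to 0.08. Cyp2c29, Cyp2c37 and Cyp2c38 differed by 0.08 ± 0.15, -0.08 ± 0.14 and -0.03 ± 0.19 (SE). Cyp2c67 and Cyp2c68 differed by 0.04 ± 0.18 and 0.03 ± 0.17 (SE), and their similar probes cannot be read as separate measurements. Cyp2c55 and Cyp2c66, each well above background on 5 of the 8 arrays, differed by 0.02 ± 0.23 and -0.20 ± 0.27 (SE). Cyp2c39 and Cyp2c50 were well above background on no array, Cyp2c54 on 1 and Cyp2c65 on 2.

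The Cyp2d genes differed more between arrays of a group than between the groups. The subfamily is related to the human drug-metabolising CYP2D6, and the transcript given for Cyp2d13 is a non-coding one. All 9 Cyp2d genes were tested, and none passed an unadjusted p of 0.05 (limma), with differences from -0.32 to 0.25. Probes of 2 of them are shown because they read neighbouring stretches of related transcripts, with capitals on the longest run of 17 bases that they share:
Cyp2d9 probe, 5′ to 3′, chr15:82285582-82285641 (mm9, plus strand): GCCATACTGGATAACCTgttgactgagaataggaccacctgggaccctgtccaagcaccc
Cyp2d34 probe, 5′ to 3′, chr15:82447966-82448025 (mm9, minus strand): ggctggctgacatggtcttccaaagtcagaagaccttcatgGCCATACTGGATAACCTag
The probes used for 2 Cyp2d genes were at most 63.6% identical over at least 40 aligned bases. This compares probes with probes, which read different stretches, and not with the transcripts of the other genes. It cannot show whether a probe also reads another Cyp2d transcript, so that the 9 genes may not be separate measurements. Cyp2d9, a steroid hydroxylase predominant in males, had 2.57, 2.49, 3.72 and 3.31 on TAC arrays and 2.51, 2.02, 3.35 and 3.34 on CTL arrays. At the printed probe, Cyp2d34 had -2.30, -2.19, -0.88 and -1.50 on TAC arrays and -2.29, -2.60, -1.12 and -1.50 on CTL arrays. In both genes TAC 3 and TAC 4 lay above TAC 1 and TAC 2, and CTL 3 and CTL 4 above CTL 1 and CTL 2.

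Parts of this order recurred in other Cyp2d genes. CTL 3 and CTL 4 lay above CTL 1 and CTL 2 in 5 of the 9: Cyp2d9 and Cyp2d34 themselves, and Cyp2d11, Cyp2d12 and Cyp2d22. The counts that follow also include Cyp2d9 and Cyp2d34. TAC 3 was the highest TAC array in 8 of the 9 genes and TAC 1 or TAC 2 the lowest in 8, while CTL 2 was the lowest CTL array in 7. Averaged over the 9 genes, arrays departed from their group mean by -0.48, -0.22, 0.64 and 0.06 on TAC arrays and -0.15, -0.47, 0.33 and 0.28 on CTL arrays. High values on these arrays were also seen elsewhere among the members: by the same average TAC 3 was the highest TAC array in Cyp4a (0.40), other family 2 (0.21), other family 4 (0.19) and the Cyp2c and Cyp2j genes (0.16), and CTL 3 was the highest CTL array in Cyp4a (0.41), other family 2 (0.28) and other family 4 (0.16). Cyp2d11 had 5.09, 5.32, 6.12 and 5.46 on TAC arrays and 5.31, 4.98, 5.92 and 5.75 on CTL arrays, a difference of 0.01 ± 0.27 (SE) over a range of 1.14 between arrays. Cyp2d22 had the largest positive difference, 0.25 ± 0.31 (SE), and Cyp2d10 the most negative, -0.32 ± 0.44. The TAC array highest in Cyp2d genes was the one with the highest summed proximal tubule level, 11.51, and TAC 1, lowest on average in Cyp2d genes among the TAC arrays, had the lowest, 11.07. Among the CTL arrays, CTL 3 was highest in both, while CTL 1 was lowest in the tubule level, 11.23, and CTL 2 in Cyp2d genes. The 75th percentile used for scaling was 1061, 927, 674 and 770 units on TAC arrays, in the reverse order of their Cyp2d average. On CTL arrays it was 1049, 873, 792 and 865, lowest on CTL 3 and highest on CTL 1. The part of tubule content and of this scaling in the order of the arrays was not tested. In Cyp2d40 TAC 3 and CTL 3 were also highest, but TAC 4 and CTL 4 were lowest. It had -3.96, -3.89, -3.88 and -4.36 on TAC arrays and -3.77, -3.79, -3.42 and -3.85 on CTL arrays, with no overlap between groups (difference -0.31 ± 0.14 (SE), unadjusted p = 0.0586, limma).

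**Figure D4:**
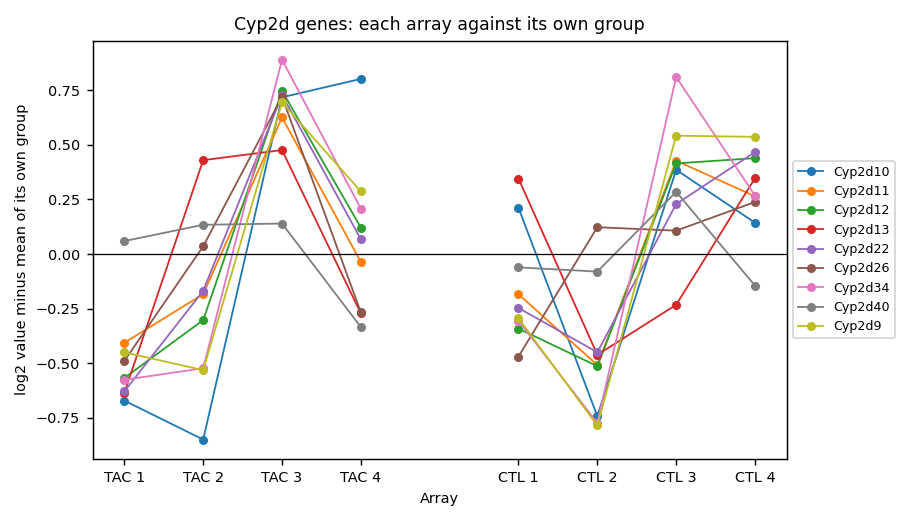
Log2 value of each of the 9 Cyp2d genes on each array minus the mean of its own group, with TAC 1 to 4 on the left and CTL 1 to 4 on the right; lines join the arrays of a group only to guide the eye. TAC 3 is highest among the TAC arrays in 8 genes and CTL 2 lowest among the CTL arrays in 7.

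The other family 2 genes had 10 of 17 members tested, with a median difference of 0.09. Cyp2s1, an extrahepatic enzyme of epithelia that metabolises eicosanoids and retinoids, had 2.35, 2.53, 2.17 and 2.30 on TAC arrays and 1.82, 1.61, 1.81 and 2.10 on CTL arrays. Every TAC value lay above every CTL value (difference 0.50 ± 0.13 (SE), 1.42-fold, unadjusted p = 0.0037, adjusted p = 0.132, limma). Cyp2r1, the vitamin D 25-hydroxylase, had 1.92, 1.79, 2.12 and 1.72 on TAC arrays and 2.15, 2.32, 2.39 and 2.00 on CTL arrays, and the groups overlapped in TAC 3 and CTL 4 (difference -0.33 ± 0.13 (SE), unadjusted p = 0.0315, limma). A second, dim probe of Cyp2r1 gave -0.91 ± 0.87.

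Cyp2e1, Cyp2a4 and Cyp2u1 were among the 8 members with the brightest probes. Cyp2e1, which oxidises ethanol and small solvents, had 7.81, 7.93, 8.07 and 8.02 on TAC arrays and 7.95, 8.22, 8.62 and 7.87 on CTL arrays (difference -0.21 ± 0.17, SE). Cyp2a4, a steroid 15-alpha-hydroxylase of mouse kidney and liver, had 6.93, 7.17, 7.34 and 7.11 on TAC arrays and 6.99, 7.08, 7.28 and 6.92 on CTL arrays (difference 0.07 ± 0.12, SE). Cyp2u1, a fatty acid hydroxylase, had 5.68, 5.94, 6.23 and 5.84 on TAC arrays and 5.46, 5.60, 5.91 and 5.67 on CTL arrays (difference 0.26 ± 0.14, SE), but its 2 other probes, both dim, gave -0.11 and -0.12. Its bright probe is annotated to a sequence that matched no current gene symbol. Whether that probe reads the coding transcript of Cyp2u1 was not tested. Cyp2b10, known in liver as a target of the receptor CAR, had -0.31, -1.61, 0.19 and 0.56 on TAC arrays and 0.79, -0.31, 1.64 and -0.69 on CTL arrays, a spread above that of 98.2% of all genes tested and a difference of -0.66 ± 0.60 (SE). Cyp2f2, Cyp2t4, Cyp2w1 and Cyp2b19 differed by -0.14 to 0.31, each with a 95% interval that included 0.

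**Figure D5:**
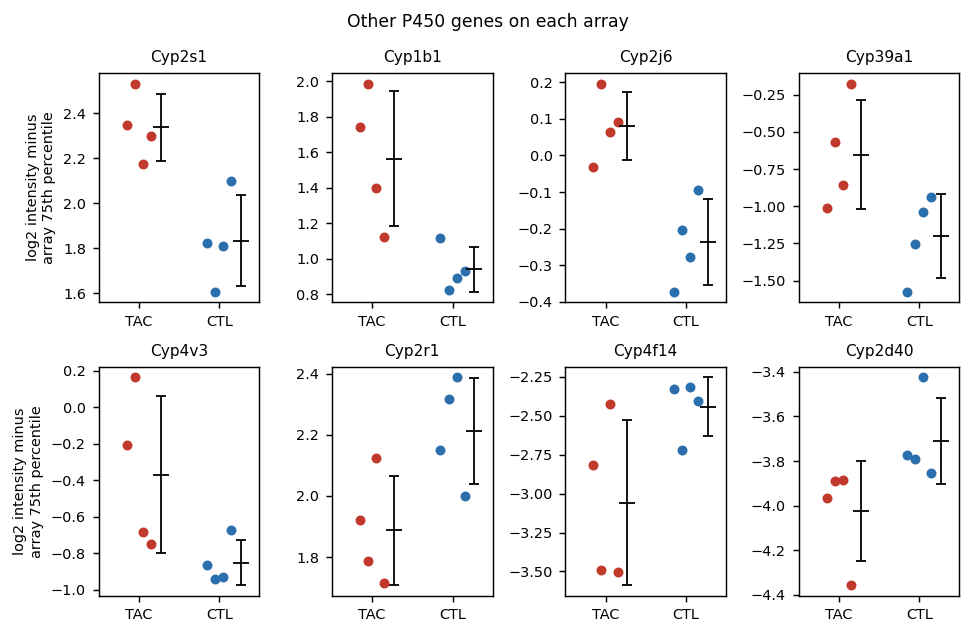
Log2 intensity minus the array's 75th percentile for 8 further members, each panel with its own vertical axis that does not start at 0, points for the 4 TAC arrays (left, red) and 4 CTL arrays (right, blue), and the mean with SD beside them. The groups do not overlap for Cyp2s1, Cyp1b1, Cyp2j6 and Cyp2d40, and they overlap for Cyp39a1, Cyp4v3, Cyp2r1 and Cyp4f14.

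Of the family 1 genes, the classical targets of the aryl hydrocarbon receptor AHR, Cyp1b1 passed the unadjusted threshold and Cyp1a1 did not. Cyp1b1, which also occurs in mesenchymal cells and acts on oestrogens and retinoids, had 1.74, 1.99, 1.40 and 1.12 on TAC arrays and 1.12, 0.82, 0.89 and 0.93 on CTL arrays. The lowest TAC value, on TAC 4, lay just above the highest CTL value, on CTL 1. The difference was 0.62 ± 0.18 (SE), 1.54-fold (unadjusted p = 0.0088, adjusted p = 0.182, limma). The summed level of the 6 fibroblast markers was 5.63, 5.93, 5.26 and 5.76 on TAC arrays and 4.77, 4.74, 4.61 and 4.70 on CTL arrays, and that of the 7 macrophage markers was 6.57, 6.49, 5.73 and 5.63 on TAC arrays and 5.66, 5.64, 5.17 and 5.34 on CTL arrays. Their part in the Cyp1b1 difference was not tested. Cyp1a1 had -2.58, -1.96, -2.10 and -2.50 on TAC arrays and -2.09, -2.12, -2.44 and -2.45 on CTL arrays, a difference of -0.01 ± 0.17 (SE) with a 95% interval of -0.39 to 0.37, and Cyp1a2 was well above background on no array. Of 6 other AHR targets, Tiparp differed by -0.31 ± 0.13 (SE), and 4 did not pass the unadjusted threshold. The sixth, the repressor Ahrr, was well above background on 3 TAC arrays and 1 CTL array, so that its CTL level is not measured. Its difference lay between 0.19 and 1.61 over 19 alternative settings.

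P450 genes of sterol and bile acid synthesis were tested in 4 of 6 cases. Cyp39a1, the 24-hydroxycholesterol 7-alpha-hydroxylase, had -1.01, -0.56, -0.86 and -0.17 on TAC arrays and -1.57, -1.25, -1.04 and -0.94 on CTL arrays. TAC 4 was the highest and the groups overlapped (difference 0.55 ± 0.21 (SE), 1.46-fold, unadjusted p = 0.0290, limma). Cyp46a1, the cholesterol 24-hydroxylase best known from neurons, had -2.00, -1.86, -1.80 and -2.40 on TAC arrays and -1.70, -1.81, -1.82 and -1.70 on CTL arrays (difference -0.26 ± 0.14, SE). Cyp7b1, an oxysterol 7-alpha-hydroxylase, had 5.68, 4.46, 4.89 and 5.92 on TAC arrays and 4.99, 5.12, 5.48 and 5.16 on CTL arrays, so that both the highest and the lowest array were TAC arrays (difference 0.05 ± 0.31, SE). The mitochondrial sterol 27-hydroxylase Cyp27a1 differed by 0.04 ± 0.12 (SE). Cyp7a1, the rate-limiting enzyme of bile acid synthesis in the liver, and Cyp8b1 were well above background on no array.

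The steroidogenic genes were sparse. Cyp11a1, which starts steroid synthesis, and Cyp11b2, the aldosterone synthase, were well above background on no array, and Cyp11b1 was so on 1 TAC array only. Cyp17a1, the 17-alpha-hydroxylase, had 2.53, 2.70, 2.93 and 2.37 on TAC arrays and 2.78, 2.75, 2.76 and 2.71 on CTL arrays (difference -0.12 ± 0.12, SE). Cyp21a1, the 21-hydroxylase, had -2.81, -2.70, -2.62 and -2.99 on TAC arrays and -2.39, -2.75, -2.67 and -2.38 on CTL arrays (difference -0.23 ± 0.13, SE). Cyp19a1, the aromatase, had -5.38, -5.21, -5.43 and -5.37 on TAC arrays and -5.33, -4.88, -5.23 and -5.32 on CTL arrays (difference -0.16 ± 0.12, SE). All 3 had slightly lower TAC means with groups that overlapped. Of 9 adrenal cortex markers 7 were tested, 3 of the list being the members Cyp11b1, Cyp11b2 and Cyp21a1. Mrap, which adipocytes also express, differed by 1.25 ± 0.37 and Akr1b7 by -1.47 ± 0.33 (SE). The summed level of the list was 0.61 to 1.38 on TAC arrays and 1.43 to 2.40 on CTL arrays. It mostly follows Akr1b7, its brightest probe. Hsd3b1 differed by -1.13 ± 0.50 (SE), with groups that overlapped. Star, Nr5a1 and Mc2r differed by -0.17 ± 0.16, -0.10 ± 0.10 and 0.13 ± 0.49 (SE).

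The retinoic acid hydroxylases varied widely. Cyp26b1 had -1.84, 0.18, 0.30 and 2.14 on TAC arrays and -0.62, -1.71, -1.57 and 0.73 on CTL arrays, a within-group spread above that of 99.4% of all genes tested. The groups overlapped over most of their range, and the difference of 0.99 ± 0.84 (SE) had an interval of -0.93 to 2.91. Cyp26a1, well above background on 3 TAC arrays and 4 CTL arrays, had -6.28, -5.60, -4.15 and -5.02 on TAC arrays and -4.70, -4.73, -4.48 and -4.22 on CTL arrays (difference -0.73 ± 0.40, SE). Cyp26c1 was well above background on no array. Cyp20a1, an enzyme with no established substrate, differed by 0.18 ± 0.11 (SE), and its second probe gave -0.06.

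Most of the 22 untested members were well above background on no array. This held for 16 of them, which besides those named include Cyp2a12, Cyp2a22, Cyp2ab1, Cyp2b23, Cyp2g1, Cyp4f40 and Cyp4x1. Cyp2b9 and Cyp2b13 were each well above background on 3 arrays, and Cyp4f37 on 1.

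Genes that serve P450 enzymes were described by lists. Of 20 genes for redox partners and haem supply, none was higher and 3 were lower at an unadjusted p under 0.05. Among all genes 7.04% were higher and 8.44% lower. The 3 genes are 15.0% of the list, beside 15.5% of all genes in either direction. Of the 20 differences 17 were negative, beside 60.5% among all genes, with a median of -0.15 against -0.05. Cpox, coproporphyrinogen oxidase of haem synthesis, differed by -0.37 ± 0.11, Hmox1, which breaks haem down, by -0.42 ± 0.17, Cyb5b, a cytochrome b5, by -0.23 ± 0.08, and the reductase Por by -0.23 ± 0.11 (SE). Of 20 regulators of P450 genes, Ppara and the circadian factor Dbp were higher and none was lower, leaving Ahrr uncounted. Dbp differed by 0.72 ± 0.29 (SE). Of 19 tested partner enzymes of eicosanoid and drug metabolism, 4 were higher and 1 lower, which is 26.3%. Gsta2, a glutathione transferase, differed by 1.04 ± 0.34, the lipoxygenase Alox5 by 1.00 ± 0.29, the retinaldehyde dehydrogenase Aldh1a3 by 0.73 ± 0.18 and the retinol dehydrogenase Rdh16 by -0.41 ± 0.10 (SE). None of these passed over all genes tested (limma, lowest adjusted p = 0.133).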

How the data were processed

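Total RNA of 8 kidney samples (0.2 ug each, RIN 9, per the labels) was labelled with Cy3 and hybridised to 1-colour Agilent arrays. Per the file headers, the authors' scanner files hold intensities from Agilent Feature Extraction 10.7.3.1: a background-subtracted processed intensity, not normalized between arrays, beside raw intensities. The deposited value table holds log2 values, which match raw median intensities after quantile normalization and log2 (largest gap 5e-09), with column medians of 6.30 to 6.32. It has no background subtraction, which compresses differences of dim probes. The submitters' processing notes name limma.

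From the scanner files, log2 processed intensity minus the array's 75th percentile over 59305 non-control spots was computed, control features and outlier spots (147 to 194 per array) were left out, and spots of a probe were averaged. Probes with no value on some array (32 of 55681) were left out, and a probe was tested if at least 4 arrays of the 8 showed it well above background, which kept 36495. Genes are named as in the files and stand for their brightest tested probe. TAC was compared with CTL with a linear model and moderated variances (R 4.3.3, limma 3.58.1, functions lmFit and eBayes, two-sided, no further terms, Benjamini-Hochberg adjustment over 25059 genes and transcripts, called at an adjusted p under 0.05), fitted first on simulated data. Single probes other than the brightest come from a fit of all tested probes. Groups were said not to overlap where all 4 values of one lay beyond all 4 of the other. A summed level is log2 of the sum of the markers' linear values. The number of arrays limits the precision.

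The members, gene lists and alternatives were chosen with earlier results of these data known. Values are given in full for the 14 tested members with the lowest unadjusted p, the 8 with the brightest probes, and the family 1, steroidogenic and Cyp26 genes, as differences for Cyp4a, Cyp2c and Cyp2j, and for listed genes by the lowest p, up to 4 per list. Others that are named were chosen after their values were seen. One gene of the list of PPARα targets is not reported here. Positions of probes come from the array annotation (mm9), and probes were checked for shared sequence only against probes of the other members, not against transcripts.

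The 20 alternatives were normexp background correction (offset 50), normalization by quantiles or by the median, the deposited table, other filters on dim probes, the mean of a gene's probes, current gene symbols, array weights, robust estimation with an intensity trend, a replicate block and leaving out arrays.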

Additional observations from a re-analysis of the deposited data

Results flagged for a closer look

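In each group of 4 arrays, the highest and the lowest value of every tested member were compared with the nearest other value, and a gap whose share of the group's whole range exceeded Dixon's critical value was taken as far. Of 124 such groups 2 had a far value, where chance gives about 1 in 20. Cyp2d40 was -4.357 on TAC 4, against -3.964 to -3.884 on the other TAC arrays. Cyp4f13 was 1.052 on CTL 3, against 0.8283 to 0.8649 on the other CTL arrays.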

How the results depend on the processing

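No P450 gene was called under any of the 20 alternatives (limma), while calls among all genes ranged from 7 without CTL 2 to 310 with array weights. The 10 members with an unadjusted p under 0.05 kept their direction in all 20, and 5 to 10 of them kept that threshold. Of these, Cyp4a32, Cyp4a10, Cyp2s1, Cyp1b1 and Cyp2j6 did so in all 20. The number of members under that threshold lay between 5 and 14, and it was between 5, without TAC 2, and 12 when 1 array was left out. The number of members whose groups do not overlap lay between 5 and 14. It was 6 to 14 when 1 array was left out, with 14 without TAC 3 and 10 without CTL 4. Smaller groups overlap less easily, but each of these fits left out 1 array. Why the count varied between them was not tested. The median difference of the members lay between -0.1304 and -0.001445. Under median centring the median of all genes was -0.11, against -0.05 as reported, and that of the members -0.08.

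The labels number the replicates alike in both groups. The correlations of same-numbered arrays' deviations from their group means were 0.16, 0.02, 0.14 and 0.06. TAC 1, TAC 3 and TAC 4 each correlated best with the CTL array of their own number, and TAC 2 did not. The numbers were not taken as pairs in the reported fit, and what same-numbered arrays share was not tested. With a replicate block, 13 members were under an unadjusted p of 0.05, 9 of the 10 among them, and 0 were called. There were then 103 calls among all genes.

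Some members' TAC minus CTL differences changed sign with the setting, and none of these members was called. Under median centring, Cyp27a1 was -0.016, Cyp2c55 -0.035, Cyp2c67 -0.016, Cyp2c68 -0.017, Cyp2d11 -0.043, Cyp2d34 -0.018, Cyp4f15 -0.028 and Cyp7b1 -0.00054. Under quantile normalization, Cyp2c55 was -0.039 and Cyp4f15 -0.0026. With normexp, Cyp1a1 was 0.0024, Cyp2b19 0.0099, Cyp2d11 -0.0076 and Cyp4f39 0.036. In the deposited table, Cyp1a1 was 0.028, Cyp2c38 0.022, Cyp2c55 -0.028, Cyp2c68 -0.0061 and Cyp4f15 -0.038. With array weights, Cyp2b19 was 0.017, Cyp2c67 -0.048, Cyp2c68 -0.056, Cyp2d11 -0.025, Cyp2d34 -0.062, Cyp2w1 -0.0020, Cyp4f15 -0.033, Cyp4f18 0.0053 and Cyp4f39 0.078. Without TAC 4 and CTL 2 together, Cyp1a1 was 0.11, Cyp27a1 -0.0039, Cyp2b19 0.19, Cyp2c37 0.030, Cyp2c38 0.15, Cyp2d11 -0.15, Cyp2d34 -0.29, Cyp2d9 -0.14, Cyp2j9 -0.040, Cyp2w1 -0.25, Cyp4f15 -0.26, Cyp4f18 0.088, Cyp4f39 0.046 and Cyp7b1 -0.20. With 1 array left out at a time, Cyp1a1 ranged from -0.12 to 0.087, Cyp27a1 from -0.024 to 0.11, Cyp2b19 from -0.35 to 0.20, Cyp2c29 from -0.018 to 0.17, Cyp2c37 from -0.17 to 0.0071, Cyp2c38 from -0.22 to 0.096, Cyp2c55 from -0.20 to 0.13, Cyp2c67 from -0.074 to 0.20 and Cyp2c68 from -0.059 to 0.18. In the same fits, Cyp2d11 ranged from -0.20 to 0.15, Cyp2d12 from -0.026 to 0.41, Cyp2d13 from -0.077 to 0.29, Cyp2d26 from -0.091 to 0.31, Cyp2d34 from -0.26 to 0.30, Cyp2d9 from -0.045 to 0.40, Cyp2f2 from -0.038 to 0.51, Cyp2j9 from -0.041 to 0.22 and Cyp2t4 from -0.056 to 0.18. Likewise, Cyp2w1 ranged from -0.23 to 0.43, Cyp4a14 from -0.94 to 0.024, Cyp4f13 from -0.12 to 0.024, Cyp4f15 from -0.16 to 0.26, Cyp4f18 from -0.21 to 0.012, Cyp4f39 from -0.23 to 0.13 and Cyp7b1 from -0.17 to 0.31. Where all arrays were kept, the cause was not tested. Outside the members, Acot1 without CTL 1, Alox5 with array weights and Akr1b7 with the replicate block were called, with adjusted p-values of 0.0362, 0.0492 and 0.0484 (limma).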
